A study of Mus musculus with 32 samples.

Results

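The comparison set 2 libraries of mouse retinal organoids grown for 6 days with dexamethasone (Dex) against 2 libraries of the same cell line grown for 6 days without it. These 4 libraries were chosen by their labels alone, out of 32 libraries of polyadenylated RNA in the series, and all 16276 genes that passed a filter on low values were compared, out of 55492 rows in the table. All 4 libraries came from one line, made from an Rx:GFP embryonic stem cell line in which GFP reports on Rax (also called Rx). Mettl3 was knocked out in it, and wild-type METTL3 joined to a domain written as GRBD in the labels was overexpressed. At day 6 both groups were in medium with AGN at 0.1 µM, and the Dex group also received Dex at 10 µM. Per the labels, the fusion stays in the cytosol unless Dex is present and then enters the nucleus. Day 6 libraries of the Rx:GFP line itself (WT) and of the Mettl3 knockout without the fusion (KO), both in AGN and neither given Dex, serve as reference levels.

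METTL3 is the catalytic subunit of the nuclear complex that writes N6-methyladenosine (m6A) on RNA, a mark that affects the splicing, export, translation and decay of transcripts. Dex is a synthetic glucocorticoid, and it is commonly used to move a protein fused to the hormone-binding domain of the glucocorticoid receptor from the cytosol into the nucleus. The eye field is the patch of anterior neural plate, defined by a small set of transcription factors with Rax among them, from which the optic vesicles and later the neural retina and the retinal pigment epithelium arise. Dex was not given to a line without the fusion, so an action of Dex itself and the movement of the fusion cannot be told apart in these data.

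The targeted gene did not separate the groups. Mettl3 was at 45.16 and 51.86 FPKM (fragments counted on the gene, scaled to transcript length and to the depth of the library) without Dex and at 44.46 and 48.76 with Dex, a log2 change of -0.05 ± 0.06 (SE, adjusted p = 0.525). It was at 36.33 and 35.11 in WT and at 37.86 and 37.32 in KO. KO carries no fusion, and neither of its libraries was below WT, so the knockout that the labels state is not seen in the transcript level, and lines are called here by their labels. In the fusion line the single value per gene does not part the endogenous transcript from that of the fusion. The reporter row for eGFP did part the groups: the no Dex libraries had 0.1 and 0.3 FPKM, the Dex libraries had 132.12 and 139.46, and WT had 200.34 and 189.57. Estimated depth over the 32 libraries ran from 28.3 to 54.2 M fragments, and at the depth of the 4 libraries 3 fragments on a 2 kb transcript came to between 0.045 and 0.048 FPKM, a limit that covers counting error only. The labels state that duplicates had separate rounds of library preparation and sequencing, and not that they came from separate cultures, so p-values measure only the spread between these libraries, which may be technical.

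A gene was called when its adjusted p in limma was under 0.05 (Benjamini-Hochberg over all tested genes). By that rule 6956 of 16276 genes were called, which is 42.7%. Of all tested genes 23.8% were higher with Dex (3867) and 19.0% were lower (3089). Counts of called members in every gene list below stand beside these shares, and a list near them is not set apart from the rest. Most of these differences were small: 5552 of the calls, or 79.8%, changed by less than 0.5 on the log2 scale. Changes of at least 1 were few, 247 genes or 1.52%, with 164 rises (1.01%) and 83 falls (0.51%). All log2 changes are of FPKM + 1, which understates the change of genes at low levels. The large rises included 72 genes with a mean under 1 FPKM without Dex, and the large falls included 26 with a mean under 1 FPKM with Dex. The libraries did not overlap between the groups for any of the 164 large rises and for 82 of the 83 large falls. Those genes were chosen for a large change in the same 4 libraries, so this follows from the choice and nothing is read from it. Of all tested genes 37.0% had both Dex libraries higher and 31.9% had both lower.

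Among called genes without a predicted symbol, at 5 FPKM or more in the higher group, the 15 largest rises included eGFP, Trpm1, Rax, Pmel, Slc38a8, Tbx2, Dct, Hmx1, Rpgrip1, Shisa2, H19, Lhx2, Minar2 and Col9a1. Eye field and optic vesicle regulators (Rax, Lhx2, Tbx2, Hmx1) and pigment cell genes (Trpm1, Pmel, Dct) were among them. The 15 largest falls were Pax3, Irx2, Hes3, Tfap2b, Irx1, Dmbx1, Fgf8, Tal2, Pax7, Scube2, Irx5, Barhl2, Cdh8, Rmst and Stmn2. Transcription factors of the neural crest and dorsal neural tube (Pax3, Pax7, Tfap2b) and of the diencephalon and midbrain (Irx1, Irx2, Irx5, Dmbx1, Tal2, Barhl2) made up most of that list.

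**Figure D1:**
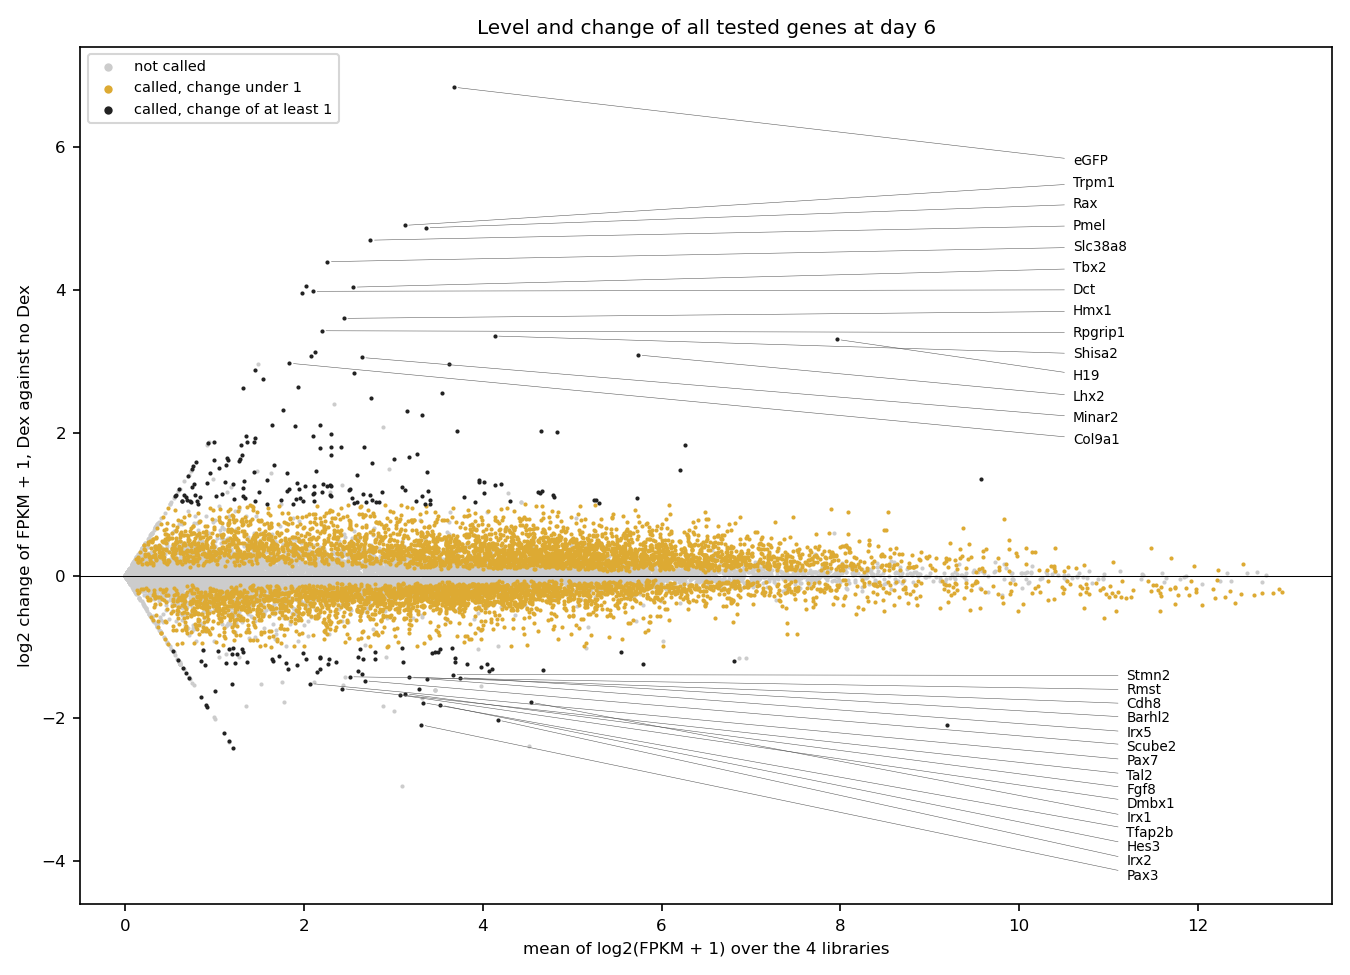
Mean log2(FPKM + 1) over the 4 day 6 libraries (horizontal axis) against the log2 change of FPKM + 1, Dex against no Dex (vertical axis), 1 point per tested gene. Black points are the 247 called genes with a change of at least 1, yellow points are smaller called changes, grey points were not called, and genes named in the text among the 15 largest rises and 15 largest falls carry their symbols. eGFP stands highest at 6.84, and the named falls lie between -2.09 and -1.39.

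Eye field genes were higher with Dex for 8 of 11 listed members, with 1 lower and 2 not called, and a list median of 1.08 beside 0.009 over all tested genes. In bulk RNA a gene can differ because fewer cells express it or because each cell holds less of its RNA, and these cannot be told apart. Rax, the homeobox gene that marks the eye field, was at 0.79 and 1.03 FPKM without Dex and at 53.89 and 55.52 with Dex. Both Dex libraries were far above both others, and the log2 change was 4.87 ± 0.06 (SE, adjusted p = 3.03e-20). WT libraries stood higher still, at 121.5 and 114.84 FPKM. Lhx2 (chromosome 2, 38339281 to 38369733, mm10), a LIM homeobox gene needed for the optic vesicle to form, was at 18 and 16.62 FPKM without Dex and at 153.91 and 155.23 with Dex, and changed by 3.09 ± 0.14 (adjusted p = 1.64e-12).

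Six3 and Six6, homeobox genes of the eye field and the anterior forebrain, rose from different starting levels. Six3 was at 10.67 and 12.19 FPKM without Dex and at 48.36 and 50.91 with Dex, a change of 2.03 ± 0.07. Six6 was at 0.01 FPKM in both libraries without Dex and at 6.66 and 6.13 with Dex. The smaller rises were Tbx3 (1.45), Fzd5, a Wnt receptor (1.08), Nr2e1 (0.64) and Mab21l2 (0.34). Not every gene of the field moved. Pax6, which is also expressed widely in forebrain progenitors, was at 156.45 and 152.45 FPKM without Dex and at 153.51 and 148.74 with Dex and was not called (adjusted p = 0.908). Hesx1 was not called either and was under 0.5 FPKM in all 4 libraries, while Otx2, a gene of the whole forebrain and midbrain, fell by 0.29 from 165.62 and 170.23 FPKM to 137.68 and 136.7.

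**Figure D2:**
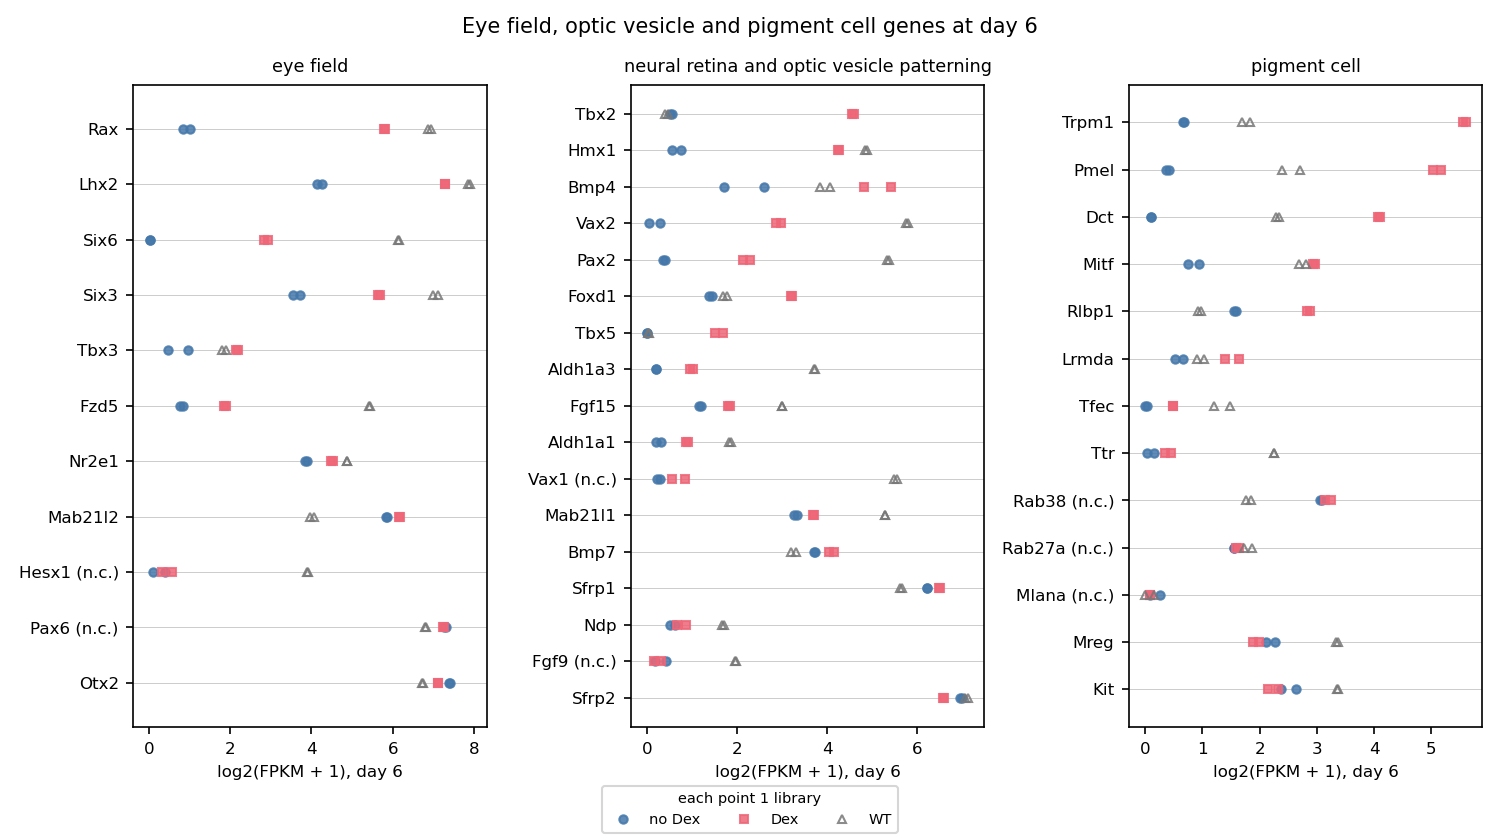
log2(FPKM + 1) at day 6 (horizontal axis) for tested members of 3 gene lists, 1 point per library, with no Dex as blue circles, Dex as red squares and WT as grey open triangles; "n.c." marks genes not called between Dex and no Dex. For Rax, Lhx2, Six6 and Six3 the Dex libraries lie between the no Dex and WT libraries, and for Trpm1, Pmel and Dct they lie above both.

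Genes that pattern the optic vesicle and the neural retina were higher with Dex for 16 of 19 tested members, with 1 lower, 2 not called and a median of 0.78. Tbx2 (chromosome 11, 85832551 to 85841948), a T-box factor of the dorsal optic vesicle, was at 0.46 and 0.43 FPKM without Dex and at 22.24 and 23.23 with Dex. Its change was 4.04 ± 0.08 (adjusted p = 2.33e-17), and WT had 0.32 and 0.37 FPKM. Tbx5, another dorsal T-box factor, was listed at 0 in both libraries without Dex and at 2.2 and 1.84 FPKM with Dex. Bmp4, the growth factor of the dorsal vesicle, spread more between duplicates, at 2.24 and 4.99 FPKM without Dex and 41.32 and 27.09 with Dex, a change of 2.97 ± 0.33. The Dex libraries were above the others in each of these dorsal genes.

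Regulators of other regions of the vesicle rose as well. Foxd1, a factor of its temporal side, went from 1.59 and 1.72 FPKM to 8.19 and 8.24. The ventral genes Vax2 (0.03 and 0.22 FPKM to 6.87 and 6.23) and Pax2, of the optic stalk (0.28 and 0.32 to 3.39 and 3.83), also rose. Their ventral relative Vax1 was not called, at 0.22 and 0.17 FPKM without Dex and 0.46 and 0.78 with Dex, where WT had 46.05 and 43.61. Hmx1 changed by 3.60 ± 0.13. The retinal enzymes for retinoic acid, Aldh1a1 (0.63) and Aldh1a3 (0.78), rose to levels at or near 1 FPKM. Sfrp2, a secreted Wnt inhibitor, was the listed gene that fell, by 0.39.

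Genes of pigment cells held several of the largest rises. Of 25 listed genes 13 passed the filter on low values, of which 8 were higher with Dex, 2 lower and 3 not called, with a median of 0.48. Mitf, the transcription factor that switches on the pigment program in the retinal pigment epithelium and in melanocytes, was at 0.69 and 0.93 FPKM without Dex, and 6.67 and 6.82 with Dex (WT had 5.47 and 6.03), a change of 2.10 ± 0.07 (adjusted p = 6.75e-14). Trpm1 (chromosome 7, 64153835 to 64269775), which encodes a cation channel of melanocytes and retinal bipolar cells, was at 0.61 and 0.58 FPKM without Dex and 45.81 and 47.6 with Dex, a change of 4.90 ± 0.12 (adjusted p = 3.94e-16). WT had 2.56 and 2.25 FPKM of it, so the Dex libraries were above every other day 6 library. Pmel (chromosome 10, 128704195 to 128720238), whose product forms the fibrils of the melanosome, was at 0.29 and 0.34 FPKM against 34.74 and 31.46, and changed by 4.70 ± 0.16.

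Dct (chromosome 14, 118012790 to 118052244), an enzyme of melanin synthesis, went from 0.08 FPKM in both libraries to 16.26 and 15.82, a change of 3.98 ± 0.07. Rlbp1, a carrier of retinoids in the pigment epithelium, rose by 1.29, and Lrmda, a melanocyte differentiation gene, by 0.93. Not every gene of melanin synthesis was among the rises. Tyr, the rate-limiting enzyme of the pathway, was listed at 0 in all 4 libraries, and Tyrp1, at 0.14 and 0.16 FPKM against 0.54 and 0.43, did not pass the filter. Rpe65 and Best1, genes of the mature pigment epithelium, stood at no more than 0.41 FPKM. Mreg (-0.26) and Kit (-0.27) were the 2 that fell, and both missed the threshold in a fit of the 4 libraries alone (adjusted p = 0.127 and 0.207), Kit also without Dex library 1 (0.256) or no Dex library 2 (0.359). The summed level of the 25 genes was 23.27 to 23.71 FPKM without Dex, 131.07 to 132.37 with Dex and 47.71 to 49.89 in WT, and Trpm1, Pmel and Dct carried most of the difference. With only genes at a mean of at least 5 FPKM over the 32 libraries, 4 pigment genes were tested, 3 were called and the list median was -0.10.

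MITF and its relatives bind short boxes whose core reads CATGTG or CACGTG, so promoters of pigment genes that rose are shown with those letters, on either strand, in capitals. Promoter windows are from RefSeq (GRCm38.p6, the build also called mm10), and the 250 bases before the start are printed 5′ to 3′ along the gene. Dct's window is chr14:118052247-118052496 on the minus strand, and Trpm1's second window is chr7:64185209-64185458 on the plus strand.
Dct: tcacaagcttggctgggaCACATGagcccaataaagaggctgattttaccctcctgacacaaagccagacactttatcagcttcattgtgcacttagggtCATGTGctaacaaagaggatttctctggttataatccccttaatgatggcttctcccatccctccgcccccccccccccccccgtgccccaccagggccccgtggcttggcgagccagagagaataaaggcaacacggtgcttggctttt
Trpm1: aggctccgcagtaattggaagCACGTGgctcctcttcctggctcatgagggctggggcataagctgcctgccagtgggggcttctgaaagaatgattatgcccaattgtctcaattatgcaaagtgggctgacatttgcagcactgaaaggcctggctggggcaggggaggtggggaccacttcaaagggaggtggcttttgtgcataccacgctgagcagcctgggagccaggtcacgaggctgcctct
CACATG in the first line is CATGTG read on the other strand. Windows of 300 bases, from 250 before to 50 after the start, were present for 19 of the 25 pigment genes. Of their 25 windows, 13 (52.0%) held either core, against 20.4% of 32851 windows of all genes. Among pigment genes that rose it was 5 of 9 windows, in Dct, Lrmda, Rlbp1 and Trpm1. Oca2, Tyr and Tyrp1, which did not pass the filter on low values, also held a core. A match is a description of the letters and not a measured site.

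Genes of the neural crest and the neural plate border fell as a group. Of 23 members, all tested, 15 were lower with Dex, 3 higher and 5 not called, and the median was -0.62. Pax3 (chromosome 1, 78101267 to 78197134), a paired box factor of the border and the dorsal neural tube, was at 19.34 and 19.58 FPKM without Dex, 3.82 and 3.79 with Dex, 0.61 and 0.5 in WT and 32.96 and 32.83 in KO. The Dex libraries lay between no Dex and WT, and the change against no Dex was -2.09 ± 0.06 (adjusted p = 2.08e-15). Tfap2b fell by 1.78 and Pax7 by 1.51. Sox10, which marks migrating crest and its glia, went from 18.2 and 18.95 FPKM to 7.03 and 7.93, a change of -1.21 ± 0.09. Foxd3 (-1.14), the crest receptor gene Ngfr (-1.17) and Ets1 (-0.99) also fell.

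The exceptions in that list are genes with roles beyond the crest. Msx2, a homeobox target of BMP signalling, rose from 6.14 and 6.61 FPKM to 14.63 and 14.08, while its relatives Msx1 (-0.65) and Msx3 (-0.81) fell. Snai1 and Snai2, regulators of epithelial to mesenchymal transition, rose by 0.55 and 0.23, but neither was called in a fit of the 4 libraries alone (adjusted p = 0.0623 and 0.228), and Snai2 missed the threshold without Dex library 1 (0.512), no Dex library 1 (0.17) or no Dex library 2 (0.0984). Twist1 and Tfap2c were not called, with Twist1 at 12.6 and 12.28 FPKM against 12.51 and 11.84. Summed over the 23 genes the level was 377.43 to 387.32 FPKM without Dex, 260.65 to 262.52 with Dex and 131.64 to 136.36 in WT.

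**Figure D3:**
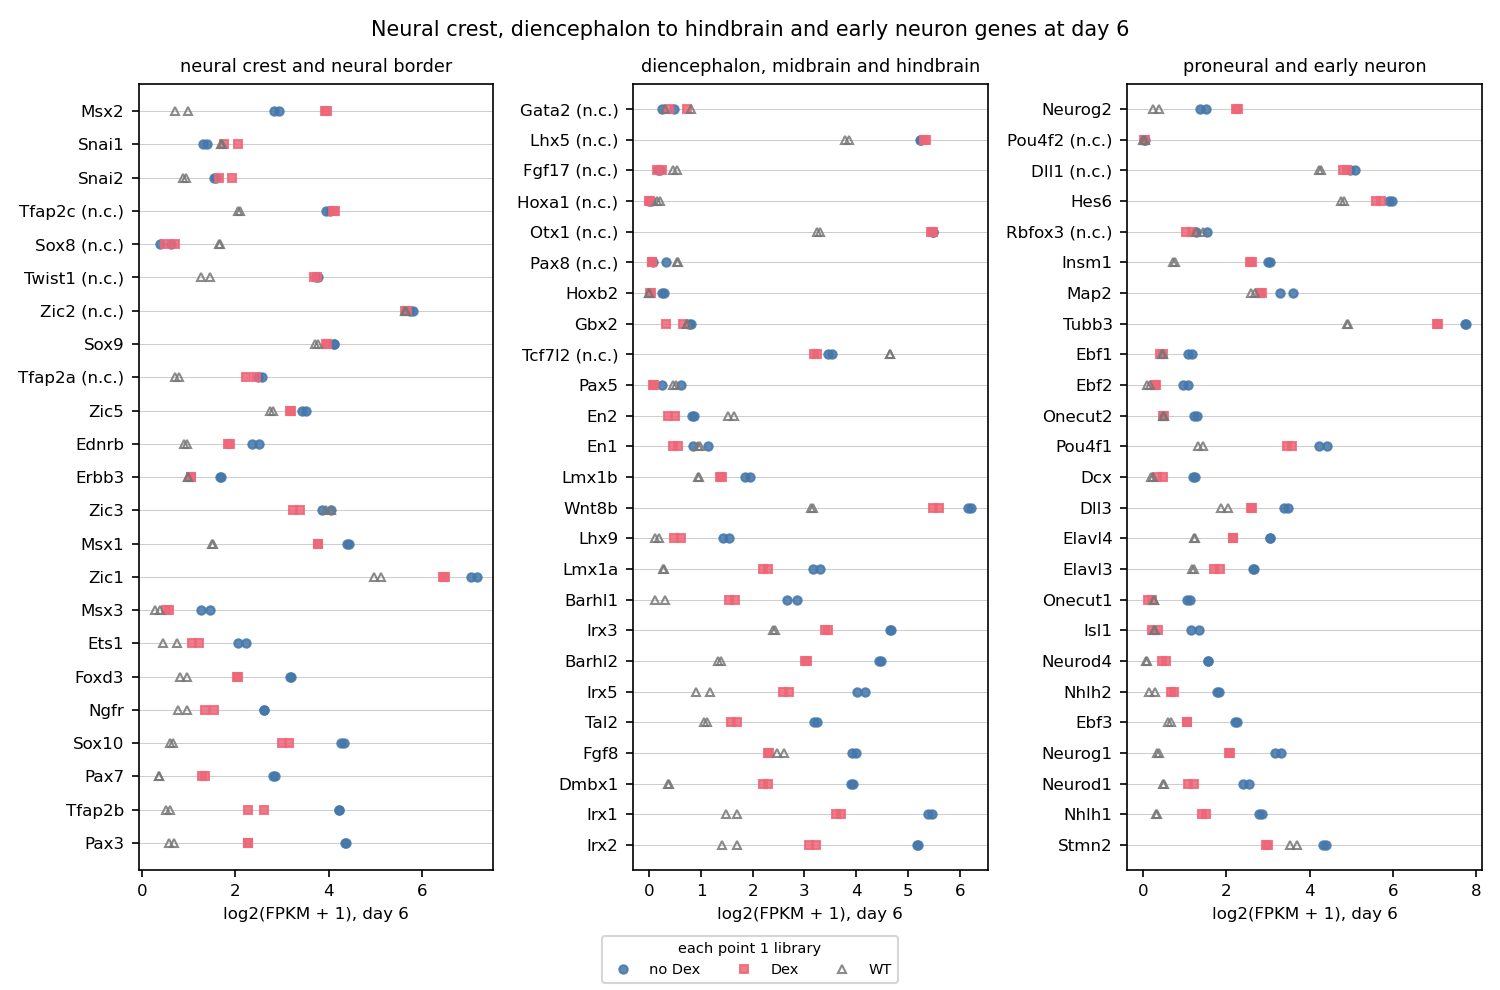
log2(FPKM + 1) at day 6 (horizontal axis) for tested members of 3 further lists, 1 point per library, with symbols as in the plot of eye genes. For most genes the Dex libraries lie to the left of the no Dex libraries, as for Pax3, Irx1 and Stmn2, and Msx2 and Neurog2 are among those that lie to the right.

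Regional genes of the diencephalon, midbrain and hindbrain fell too: 18 of 26 tested members were lower, 1 higher and 7 not called, with a median of -0.50. The Iroquois homeobox genes, which are expressed behind the anterior forebrain, went together. Irx1 (chromosome 13, 71957921 to 71963723) was at 40.89 and 43.06 FPKM without Dex and 11.16 and 11.98 with Dex, a change of -1.77 ± 0.11 (adjusted p = 2.59e-10), with WT at 2.25 and 1.81. Irx2 went from 35.4 and 35.0 FPKM to 8.32 and 7.52, Irx3 from 24.27 and 24.41 to 9.53 and 9.91, and Irx5 from 15.23 and 17.0 to 5.54 and 5.03. Each of the 4 had both Dex libraries under both others.

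Dmbx1, a homeobox gene of the midbrain and diencephalon, fell by 1.67, Tal2, of midbrain neurons, by 1.58, and Barhl2, of the diencephalon, by 1.43. Fgf8, the signal of the border between midbrain and hindbrain and of the anterior neural ridge, was at 14.21 and 14.91 FPKM without Dex and 3.97 and 3.92 with Dex, a change of -1.65 ± 0.16, beside 5.09 and 4.53 in WT. Lmx1a (-0.99) and Wnt8b (-0.65), genes of the dorsal midline, fell by less. En1 (-0.48) and En2 (-0.41), markers of the midbrain and anterior hindbrain, were called lower at 1.2 FPKM or less in each of the 4 libraries, and En1 missed the threshold in a fit of those 4 alone (adjusted p = 0.0725). Otx1 and Lhx5 were not called, at 43.58 and 43.54 FPKM against 42.69 and 43.54 for Otx1. The list summed to between 359.21 and 369.38 FPKM without Dex, between 200.83 and 201.82 with Dex and between 80.2 and 80.27 in WT.

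Proneural and early neuron genes were lower with Dex for 22 of 26 tested members, with 1 higher, 3 not called and a median of -0.83. Stmn2, which encodes a microtubule regulator of young neurons, was at 19.15 and 19.9 FPKM without Dex and 6.99 and 6.72 with Dex, a change of -1.39 ± 0.04 (adjusted p = 2.77e-15). Tubb3, the neuronal tubulin, went from 211.11 and 212.97 FPKM to 134.44 and 132.73, and WT had 29.46 and 28.91. Neurog1, a factor that starts neurogenesis, fell from 8.0 and 9.02 FPKM to 3.28 and 3.16. Neurod1, which follows it, fell by 1.31. Neurog2 was the exception, at 1.59 and 1.86 FPKM without Dex and 3.67 and 3.85 with Dex, a rise of 0.81. The retinal ganglion cell factors Atoh7 and Pou4f2 stayed under 1 FPKM in the 4 libraries.

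Anterior forebrain genes took another course. Of 22 listed 13 were tested: 6 rose, 2 fell and 5 were not called, with a median of 0.27. Fezf2, a zinc finger repressor of the rostral forebrain, was at 82.09 and 83.27 FPKM without Dex and 135.49 and 139.4 with Dex (0.73 ± 0.05), and its relative Fezf1 rose by 0.87. Emx1 (1.03) and Dmrta2 (0.60) also rose. The Dex levels of Fezf2 and Emx1 were above WT, with Emx1 at 7.02 and 8.36 FPKM against 0.68 and 0.63. Sp8 (-0.61) and Pou3f1 (-0.68) fell. General neural progenitor genes divided evenly, with 4 higher, 3 lower and 7 of 14 not called, where 42.7% of all tested genes were called. Sox2 was at 171.37 and 171.68 FPKM against 175.41 and 170.35 and was not called, while Fabp7, a fatty acid binding protein of radial glia, fell from 170.14 and 167.63 FPKM to 73.76 and 72.44 (-1.20 ± 0.11).

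Canonical Wnt signalling is known to favour posterior neural fates. Of 39 tested Wnt pathway genes 12 were higher, 17 lower and 10 not called, with a median of -0.08. Wnt1, a dorsal midline and midbrain ligand, was at 37.93 and 40.64 FPKM without Dex and 15.12 and 15.1 with Dex (-1.32 ± 0.05, adjusted p = 1.17e-13). Wnt3 (-1.22) and Wnt4 (-0.81) fell with it, whereas Wnt5b (0.81), Wnt7a (0.72) and Wnt7b (0.35) rose. The R-spondins Rspo3 and Rspo2, which enhance Wnt signalling at the receptor, fell from 84.51 and 82.96 FPKM to 35.58 and 34.48 and from 48.54 and 47.9 to 23.97 and 23.83, and Rspo1 was not called. The receptors Fzd10 (-1.31) and Fzd3 (-0.41) fell, and Fzd8 (1.01), Fzd9 (0.84), Fzd1 (0.62), Fzd7 (0.61) and Fzd2 (0.58) rose. With 0.1 added to FPKM in place of 1, Fzd3 was not called (adjusted p = 0.205 in limma). It also missed the threshold when any 1 of the 4 libraries was left out, with changes between -0.422 and -0.395. Axin2, a transcriptional target and inhibitor of the pathway, fell by 0.51, Sp5, another target, by 0.36, and Tcf7l1, which represses targets, rose from 14.71 and 15.89 FPKM to 35.29 and 36.3 (1.18 ± 0.04).

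In the BMP and TGF beta pathways 12 of 28 tested genes rose, 6 fell and 10 were not called, with a median of 0.19. Id4, one of the inhibitors of proneural factors that BMP signals induce, was at 13.28 and 13.03 FPKM without Dex and 55.85 and 56.15 with Dex, a change of 2.01 ± 0.08. Its relatives differed little: Id3 rose by 0.16, Id1 fell by 0.15 and Id2 was not called. The ligand Tgfb2 rose from 0.79 and 0.93 FPKM to 4.36 and 4.46, and the feedback inhibitors Smad6 (0.88) and Smad7 (0.42) rose. In the FGF pathway, beside 19.0% lower and 23.8% higher over all genes, 10 of 18 fell, 3 rose and 5 were not called. The falls included the feedback inhibitors Spry2 (-0.76), Dusp4 (-0.62) and Dusp6 (-0.29) and the receptor Fgfr3 (-0.59).

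Hedgehog pathway genes numbered 5 higher, 3 lower and 5 not called of 13 tested, where 42.7% of all tested genes were called. The target and effector Gli1 rose by 0.57, to 0.93 and 0.91 FPKM, and the coreceptors Cdon (-0.75) and Boc (-0.48) and the effector Gli3 (-0.57) fell. Of 14 tested genes of retinoic acid metabolism and response 8 rose, 1 fell and 5 were not called, with a median of 0.34. Stra6, the cell surface receptor for the retinol carrier, was at 3.41 and 3.75 FPKM without Dex and 12.89 and 13.35 with Dex (1.63 ± 0.09). Crabp1, a carrier of retinoic acid, fell from 239.09 and 244.41 FPKM to 134.8 and 138.84.

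Because Dex is a glucocorticoid, known targets of the glucocorticoid receptor were listed: of 21 tested 12 rose, none fell and 9 were not called, with a median of 0.21, beside 23.8% higher and 19.0% lower over all tested genes. Rises came in the metallothioneins, Mt1 (135.54 and 130.58 FPKM to 230.2 and 238.73) and Mt2 (82.18 and 93.2 to 153.64 and 157.82), and in Cebpb (0.75), Per1 (0.61) and Ddit4 (0.60). WT, without Dex, had mean levels of 319.54 FPKM for Mt1 and 259.05 for Mt2. Fkbp5, which encodes a chaperone of the receptor, was at 14.76 and 14.27 FPKM without Dex and 15.69 and 15.35 with Dex, a change of 0.09 (adjusted p = 0.0394) that missed the threshold without Dex library 1 (0.189), Dex library 2 (0.0642) or no Dex library 2 (0.234). Tsc22d3 (GILZ) was at 21.73 and 21.45 FPKM against 20.54 and 21.54, and neither it nor Sgk1, Zbtb16 or Klf9 was called. Nr3c1, the receptor gene itself, was at 0.51 and 0.68 FPKM against 0.48 and 0.52 and was not called (adjusted p = 0.511).

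The receptor binds palindromes, here searched as AGAACA, any 3 bases and then TGTTC, on both strands. This form was in 16 of 32851 promoter windows (0.0487%), in 14 genes, and among 33 windows of 23 listed glucocorticoid response genes it was in 1, that of Sgk1. The 250 bases before that start, chr10:21993640-21993889 on the plus strand in the same RefSeq build, are shown because they hold the site in capitals, which matches on both strands.
Sgk1: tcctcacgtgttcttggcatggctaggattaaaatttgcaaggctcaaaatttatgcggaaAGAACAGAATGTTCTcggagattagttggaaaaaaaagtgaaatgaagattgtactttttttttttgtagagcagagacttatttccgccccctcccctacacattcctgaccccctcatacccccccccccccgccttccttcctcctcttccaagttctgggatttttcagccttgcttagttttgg
Sgk1 was at 22.59 and 20.06 FPKM without Dex and at 21.02 and 21.44 with Dex, a change of -0.004 ± 0.11. None of 11 windows of the listed genes that rose held these letters. At a share of 0.0487% over all windows, a match in so few is unlikely, so nothing is read from this.

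Components of the m6A machinery were lower by small amounts: 12 of 20 fell, 2 rose and 6 were not called, with a median of -0.15. Igf2bp3, a reader that stabilizes transcripts, fell most, from 64.92 and 60.0 FPKM to 39.47 and 38.27 (-0.67 ± 0.04). Wtap, the adaptor of the writer complex, fell from 104.04 and 100.65 FPKM to 76.44 and 76.86, and Virma (-0.33), Cbll1 (-0.36) and Zc3h13 (-0.27), further subunits, fell less. Mettl14, the partner of METTL3, was not called (0.01). Rbm15b (0.27) and Igf2bp2 (0.30) rose.

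Markers of other tissues changed with the groups, and their part in the differences above was not tested. Of 15 tested mesoderm and endoderm genes 8 rose, 1 fell and 6 were not called, and the sum over 22 listed genes was 32.88 to 33.19 FPKM without Dex and 35.3 to 37.51 with Dex, beside 144.94 to 146.68 in WT. Sox17, an endoderm factor, reached 2.92 and 2.85 FPKM from 0.16 and 0.38, and Mixl1, Cer1 and Afp were at or near 0. With only genes at a mean of at least 5 FPKM, 3 of the list were tested and their median was -0.17. Epithelial and surface ectoderm genes rose in 11 of 18 tested members, with 2 lower and 5 not called. Their sum went from 47.53 to 48.7 FPKM without Dex to 97.59 to 101.17 with Dex, through Krt19 (4.0 and 4.12 to 14.27 and 15.8), Krt18 and Cldn6, while the epidermal markers Krt5, Krt14 and Trp63 and the lens crystallin Cryaa were at or near 0.

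Genes of mesenchyme, endothelium and blood went both ways, with 4 higher, 5 lower and 5 of 14 not called. The contractile genes Tagln (2.95 and 4.3 FPKM to 20.21 and 21.18) and Acta2 (4.39 and 4.29 to 15.85 and 16.85) rose, and the connective tissue genes Col1a1 (-1.03), Prrx1 (-0.77), Lum (-0.77) and Dcn (-0.78) fell. The sum was 29.63 to 31.74 FPKM without Dex and 54.72 to 56.23 with Dex. Blood markers Ptprc, Hba-a1 and Hbb-bs were at or near 0. Of the later retinal cell types only 4 of 16 listed genes were tested, and Crx, a photoreceptor and pineal factor, rose by 0.57 to 1.34 and 1.63 FPKM, with Nrl, Rcvrn and Arr3 at or near 0.

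Stress and p53 response genes rose in 22 of 29 members, with 1 lower, 6 not called and a median of 0.41, and their sum went from 1556.62 to 1577.38 FPKM without Dex to 1905.63 to 1906.93 with Dex. Phlda3, a p53 target, went from 33.76 and 36.96 FPKM to 75.36 and 77.18, and Atf5 (0.98), Trib3 (1.11) and Chac1 (1.00), targets or members of the ATF4 branch of the stress response, rose as well. Mdm2, the p53 target and inhibitor, was not called. Whether this program bears on the other differences was not tested. Glycolysis and hypoxia genes had 14 of 21 higher, 2 lower and 5 not called, among them Ndrg1 (1.08) and Vegfa (0.81). In the cell cycle list 8 rose, 3 fell and 13 of 24 were not called, where 42.7% of all tested genes were called. Mki67 changed by -0.17 and the inhibitor gene Cdkn1a by 0.86.

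Pluripotency genes had 6 higher, 5 lower and 8 of 19 not called, with Pou5f1 at 13.56 and 12.08 FPKM against 14.75 and 12.79 and not called (adjusted p = 0.157), though it was called without Dex library 2 (0.00769) or no Dex library 1 (0.0246). Imprinted genes had 5 higher, 5 lower and 9 of 19 not called, where 42.7% of all tested genes were called. H19 (chromosome 7, 142575529 to 142578143), a noncoding RNA, stood far from the rest of that list, at 79.85 and 76.66 FPKM without Dex and 801.86 and 764.6 with Dex, a change of 3.31 ± 0.09 (adjusted p = 1.12e-15). WT had 229.36 and 229.49, and its neighbour Igf2 fell by 0.72. Cholesterol and fatty acid synthesis genes had 8 higher, 7 lower and 4 of 19 not called, with a median of -0.035.

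**Figure D4:**
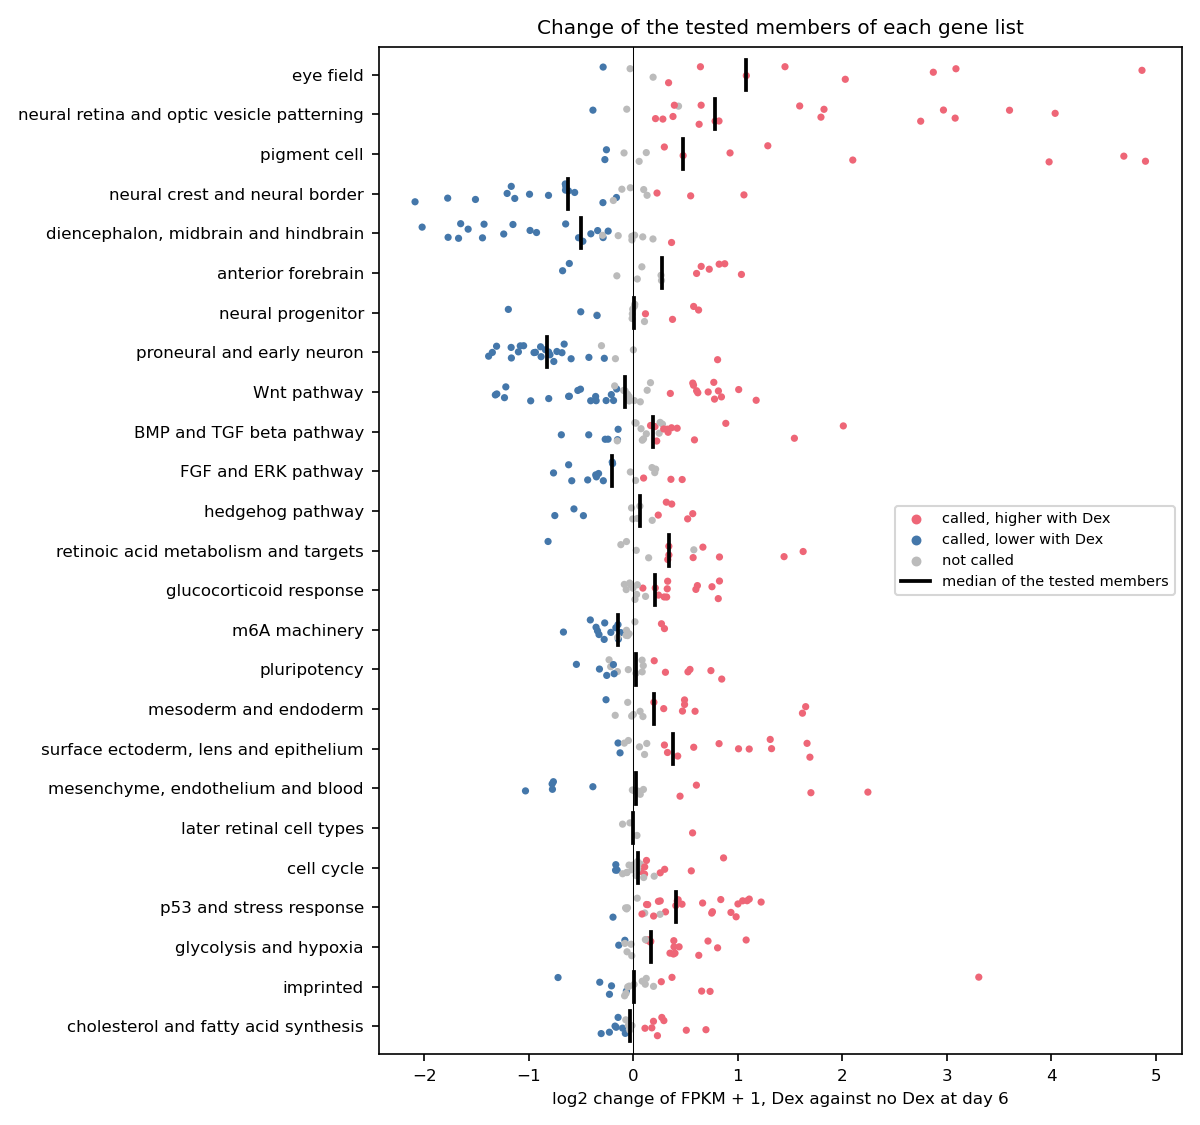
log2 change of FPKM + 1, Dex against no Dex at day 6 (horizontal axis), for each tested member of 25 gene lists, 1 point per gene, with black bars at the list medians. The eye field (1.08) and optic vesicle (0.78) medians lie farthest to the right and the proneural and early neuron (-0.83) and neural crest (-0.62) medians farthest to the left, and H19 stands alone at 3.31 in the imprinted list.

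Differences at day 6 were compared with those between the day 4 libraries of the same 2 groups, which share no library with them. The contrast of the 2 effects was called for 6704 genes, 41.2% of those tested, with 24.2% called higher at day 6 than at day 4, 17.0% called lower and a median over all genes of 0.04. Genes chosen for a large change at day 6 are bound to differ from day 4 by this contrast more often, so only their day 4 values are given. Of the 164 large rises 101 (61.6%) had a higher mean with Dex at day 4, and their median change at day 4 was 0.12. The share was 50.3% for all tested genes with a rise at day 6, called or not. Of the 83 large falls 45 (54.2%) had a lower mean at day 4, beside 54.5% for all tested genes with a fall at day 6, called or not. The same contrast with day 0, the stem cells labelled as Dex treated or not, was called for 7919 genes (48.7%). The labels give no Dex dose at day 0, so what parts the day 0 groups is not known.

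Eye field genes included both kinds, higher with Dex at day 4 or apart at day 6 alone. Mab21l2 went the other way at day 4, with means of 22.6 FPKM without Dex and 12.63 with Dex (-0.79). At day 6 it was higher with Dex by 0.34. At day 4 the mean of Rax was 6.47 FPKM without Dex and 74.475 with Dex, and for Six3 it was 33.81 and 127.35, so the Six3 effect did not differ between the days by the test (0.15, adjusted p = 0.261). Pax6, not called at day 6, was at 9.69 FPKM without Dex and 40.57 with Dex at day 4, and its effect differed between the days by -1.99 (adjusted p = 3.7e-07). Hesx1 was at 74.485 and 162.205 FPKM at day 4 and near 0 in both groups at day 6. Six6 and Tbx3, however, were at 0.075 and 0.17 and at 0.62 and 0.55 FPKM at day 4, and the day 6 effect of both was called larger (adjusted p = 5.93e-15 and 2.64e-05). Pigment genes included both kinds too. Pmel had a higher mean with Dex at day 4 (1.665 FPKM without and 3.235 with, a change of 0.67), beside a change of 4.70 at day 6. Its mean was also higher in the group labelled Dex at day 0 (3.77 and 8.34 FPKM), and lower with Dex at day 2 (5.285 and 3.325). Rlbp1 was at 1.605 FPKM without Dex and 5.635 with Dex at day 4, and its effect was not called different between the days (adjusted p = 0.774). Trpm1 was at 0.08 and 0.03 FPKM at day 4, Dct at 0.04 and 0.025 and Mitf at 0.555 and 0.5, and the day 6 effect of each was called larger (adjusted p = 1.04e-13 for Trpm1, 5.41e-16 for Dct and 1.2e-11 for Mitf). Tbx2, of the optic vesicle list, was at 0.2 and 0.15 FPKM at day 4 (adjusted p = 8.42e-15). Whether the lists differ in timing was not tested.

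Among the falls, the Iroquois genes already had lower means with Dex at day 4: Irx1 was at 23.47 FPKM without Dex and 9.085 with Dex, Irx3 at 58.525 and 8.735, and Irx5 at 25.77 and 4.105. Their effects were called different between the days, further from 0 at day 6 for Irx1 (-0.49) and nearer to 0 for Irx3 (1.37) and Irx5 (0.95). Pax3 was at 1.865 and 2.185 FPKM at day 4, and Sox10 at 0.555 and 0.71, and their effects differed between the days by -2.24 (adjusted p = 2.21e-13) and -1.34 (adjusted p = 1.22e-07). The early neuron list had 20 of 26 members with a day 6 effect called lower than at day 4 and 2 called higher, beside the 17.0% and 24.2% of all genes. In the anterior forebrain list 6 of 13 were called lower and 2 higher. Emx2 and Fezf2 of that list, and Otx1 of the diencephalon to hindbrain list, had higher means with Dex at day 4 (5.54 without and 21.285 FPKM with Dex for Otx1, 4.615 and 18.05 for Emx2, 9.3 and 43.795 for Fezf2), and the effect of each at day 6 was called lower (-1.78 for Otx1, -1.55 for Emx2 and -1.39 for Fezf2). Emx1 (0.42) and Dlx5 (1.91) were the 2 called higher. Scube2, a secreted signalling modulator, changed sides, from 0.53 and 2.225 FPKM at day 4 to 9.57 and 9.78 against 3.06 and 2.64 at day 6. Other named falls also had higher means with Dex at day 4, by less. Among them were Fgf8 (1.97 without and 3.83 FPKM with Dex), Hes3 (3.515 and 5.75) and Rmst (0.085 and 0.575). Of the 83 large falls, 45 had a lower mean with Dex at that day.

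**Figure D5:**
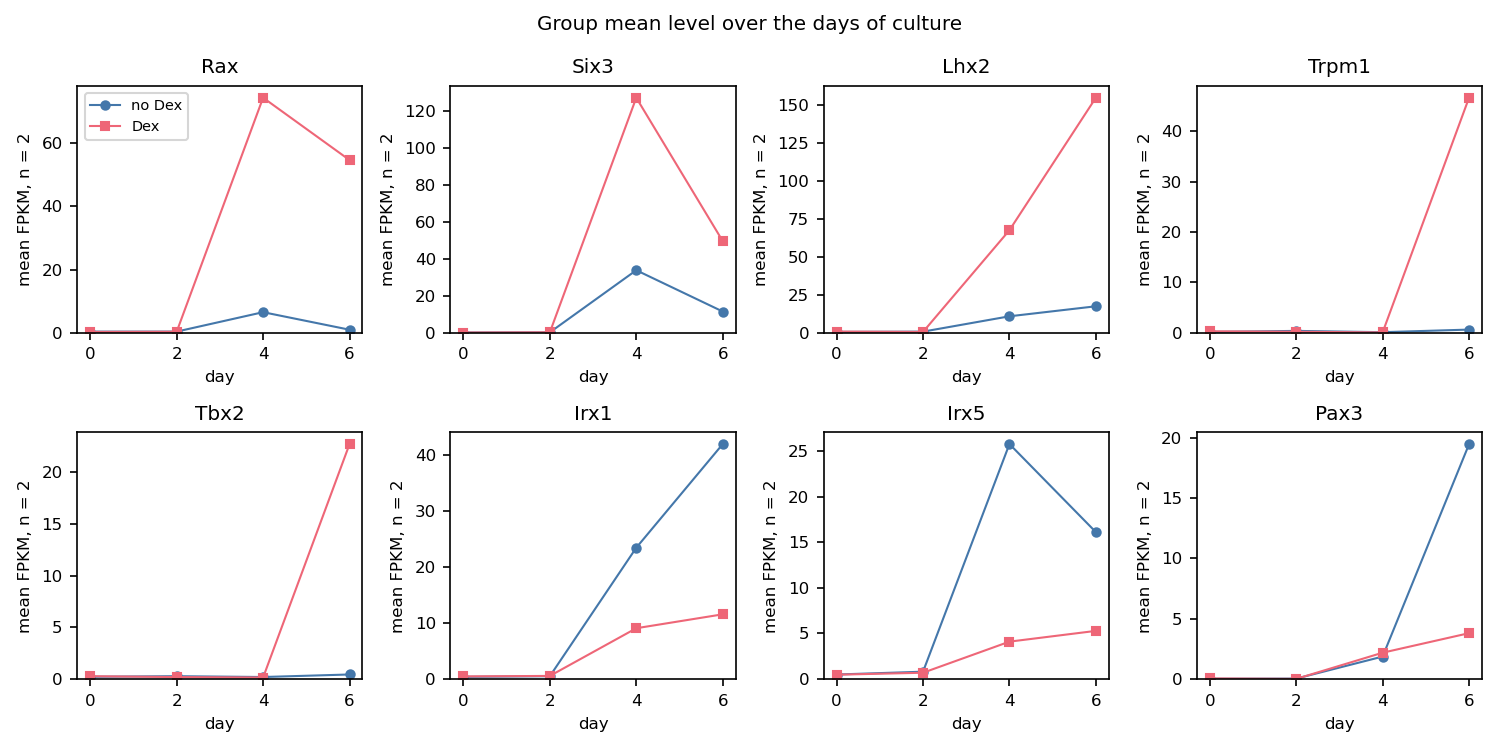
Group mean FPKM of 2 libraries (vertical axis) at days 0, 2, 4 and 6 (horizontal axis) for 8 genes, no Dex in blue and Dex in red. Rax and Six3 part by day 4 and fall back toward day 6 in both groups, Trpm1 and Tbx2 part at day 6 alone, and Irx1 and Irx5 are lower with Dex at both day 4 and day 6.

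The Dex libraries were also set beside WT at day 6. This comparison shares the Dex libraries with the first, so the values stand side by side with no test across them. Dex and WT differed at 9987 genes (61.4%), with 4753 higher with Dex (29.2%) and 5234 lower (32.2%). Chromosome 8 genes had a median of 0.35 against WT, where the other chromosomes lay between -0.12 and 0.03. Against no Dex it was 0.04, with the others between -0.03 and 0.07. Irx3, Irx5, Mt1, Mt2 and Slc38a8 lie there, and the part of that shift in their levels beside WT was not tested.

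Eye field levels with Dex were under WT for 7 of 11 genes and above it for 3. Six6 (6.66 and 6.13 FPKM against 70.33 and 69.0) and Fzd5 (2.6 and 2.74 against 41.92 and 42.5) were far under, and Lhx2 was nearer, with a change of -0.59 against WT. In the optic vesicle list 13 of 19 were under WT and 6 above. Pigment genes were above WT in 7 of 13 cases and below it in 5, with Trpm1 (3.81), Pmel (2.54) and Dct (1.77) among those above. Neural crest genes were above WT in 18 of 23 cases, early neuron genes in 18 of 26 and posterior brain genes in 15 of 26. Pax3, Sox10, Irx1 and Tubb3 are genes that fell with Dex to a level between those of no Dex and WT, while Stmn2 and Crabp1 fell to a level under WT.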

How the data were processed

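The deposited table holds FPKM per gene for 32 RNA-seq libraries, and the submitters' processing notes name STAR, Cuffdiff and the mouse build mm10, so these FPKM values were made by the authors and their settings are not given in the sources used here. All 32 libraries, in 16 groups of 2, entered a single fit in limma 3.58.1 (R 4.3.3) on log2(FPKM + 1). Genes with at least 1 FPKM in at least 2 libraries were kept (16276 of 55492 rows), and variances were moderated with a trend on 16 residual degrees of freedom. Every adjusted p is limma's, Benjamini-Hochberg over these genes, with n = 2 libraries a group. The steps were tested on simulated data.

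Depth was estimated from the steps of low FPKM values: 76.4% to 90.4% of them lay within 0.2 of a whole fragment, where 40.0% would by chance. The comparison and the gene lists were chosen with earlier results of these data known. Genes named by rule are the 15 largest called rises and 15 largest called falls with groups that do not overlap, at least 5 FPKM in the higher group and no predicted symbol. Gene positions are from GENCODE M21 (GRCm38). Antisense genes, and near-identical family members, may share fragments. Alternatives were another pseudocount and filter, rescaling, the compared groups alone, no variance trend, a replicate block and leaving out each library. A few genes are not reported here or drawn by name, but are counted in the lists.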

Additional observations from a re-analysis of the deposited data

Results flagged for a closer look

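The effect of Dex at day 6 differed from that at day 4 for 6704 genes by the test of the difference in limma. It differed for 7919 genes from the difference between the groups at day 0, where no Dex dose is given. Among the 247 changes of at least 1 at day 6, 143 of the 164 rises and 70 of the 83 falls differed from day 4 by this test. These genes were chosen for the day 6 effect that enters the test, so such a share follows from the choice, and nothing is read from it. Changes of at least 1 in opposite directions at days 4 and 6 were found in 2 genes. One was Scube2, with means of 0.53 FPKM without Dex and 2.225 with Dex at day 4 and of 9.675 and 2.85 at day 6 (difference of the effects -2.55, adjusted p = 1.29e-13). The other was the predicted gene CAAA01147332.1, listed at 0 in both Dex libraries at day 6 and spread from 1.1 to 9.21 FPKM in the libraries without Dex (-3.26, adjusted p = 0.029).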

How the results depend on the processing

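The 30 genes named by the rule kept their call and direction in all 314 values computed under the alternatives. These genes were chosen as the largest called changes in the same libraries, so such stability follows largely from the choice. Those with a mean under 5 FPKM over the 32 libraries had no value under that filter. Dex against no Dex had 5151 calls with the compared groups alone and 6928 after rescaling, with 57.7% and 51.6% of them higher, against 6956 and 55.6% as reported. Without single libraries it had 5742 to 5912. Low values set the counts of large changes. With a pseudocount of 0.1, changes of at least 1 numbered 687 for Dex against no Dex, 1178 for day 6 against day 4, 1335 for day 6 against day 0 and 2053 for Dex against WT. With a mean of at least 5 FPKM, which left 9412 genes, they numbered 97, 234, 266 and 509, against 247, 498, 533 and 962 as reported.

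Fewer members then stayed in the lists, so fewer were called: 6 optic vesicle, 3 pigment, 7 neural crest, 8 diencephalon to hindbrain, 5 anterior forebrain, 6 proneural, 18 Wnt, 6 BMP, 3 hedgehog, 2 mesoderm and endoderm, 2 mesenchyme and 0 later retinal genes. The medians turned to -0.1014 for pigment genes and -0.1741 for mesoderm and endoderm. Later retinal genes had 2 calls with no filter and 2 with the pseudocount of 0.1. Of 490 named or listed genes, 42 lost their call with the compared groups alone and 24 to 29 without single libraries. Mab21l2 and Sp5 lost theirs with the smaller pseudocount (adjusted p = 0.132 and 0.383).

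Replicate numbers did not pair the libraries: the differences between duplicates correlated at 0.058 for Dex and no Dex, and between -0.088 and 0.125 over 120 pairs of groups. With the replicate number as a block there were 6960 calls, 247 of at least 1, and 1 of the 490 genes, Sox7, lost its call. With 2 libraries a group and values of 0.045 FPKM resting on 3 fragments, small differences of low genes are not resolved.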

Other observations

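Several genes outside the lists changed by at least 1 and were chosen here after their values were seen. C1qtnf5 and Mfrp, an overlapping pair known from the retinal pigment epithelium, whose fragments may not be told apart, rose from 3.11 and 2.87 FPKM to 17.83 and 19.67 and from 0.4 and 0.41 to 4.61 and 4.06. Their means were 0.515 and 0.275 FPKM in WT. In KO, without fusion or Dex, they were 8.265 and 3.07, above the no Dex libraries. Trpm3, a channel relative of Trpm1, rose by 1.69. Apoe, a lipid carrier, went from 472.74 and 480.72 FPKM to 1225.8 and 1211.64, beside a WT mean of 1105.945. Hmga2, a chromatin protein of embryonic cells, rose from 43.62 and 43.13 FPKM to 121.91 and 122.96. Among the falls, Dbx1, a homeobox gene of interneuron progenitors, went from 20.14 and 21.25 FPKM to 8.41 and 8.01, and Dcc (-1.25), Nrp2 (-1.20) and Slit1 (-1.08) fell. Those 3 act in axon guidance, as do Unc5b, a netrin receptor that rose from 1.71 and 1.59 FPKM to 6.33 and 6.23, and Efna3, an ephrin that rose by 1.18, so genes of this role moved in both directions.

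Placental genes were also among the large rises. The prolactin family member Prl7d1 went from 0.32 and 0.37 FPKM to 3.91 and 3.95, and Tpbpa, a marker of the spongiotrophoblast, from 0.07 and 0.02 to 2.76 and 2.84. Tpbpb (1.28), Prl2a1 (1.43) and Prl3b1 (1.24) rose too. Members of this family are close copies of each other, so their separate levels are uncertain.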
